A study of Mus musculus with 8 samples.

Results

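The plasminogen activation system was followed in mouse aortic mRNA through 7 genes: the activators Plau and Plat, the urokinase receptor gene Plaur, the surface receptor pair Anxa2 and S100a10, the clearance receptor gene Lrp1 and the inhibitor gene Serpine2. The rule took the rows of the gene table with these symbols. All 7 were among its 13839 genes and among the 13701 tested. The 5 control libraries and 3 TAD libraries came from aortic tissue, where TAD denotes thoracic aortic dissection. For the TAD model, mice drank water with the lysyl oxidase inhibitor β-aminopropionitrile monofumarate (1 g/kg per day) for 4 weeks, starting when they were 3 weeks old. Pumps delivering angiotensin II, a peptide that raises blood pressure, at 1 µg/kg per min were placed at 7 weeks, and tissue was collected after 24 h. The sources used here do not give strain, genotype, or the age and treatment of the controls. The labels number the libraries as replicates without naming mice, so every p-value reflects variation among libraries, which may be technical.

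Plasmin is a broad serine protease made by cutting plasminogen, which the liver secretes into blood. Urokinase, the product of Plau, does this mostly at cell surfaces while bound to its receptor, and tissue-type activator, the product of Plat, does it mostly on fibrin. Serpins such as the product of Serpine2 trap the activators, and the receptor LRP1 takes up the activator and serpin complexes. In arteries the system is known for clot lysis, for cell migration and for the activation of matrix metalloproteinases.

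The promoters of Plaur and Anxa2 are shown because their genes were higher in TAD and both hold an AP-1 element (TGANTCA), the recognition sequence of Fos and Jun factors. The sequences are from RefSeq on GRCm38.p6, plus strand, and capitals mark AP-1 and GC boxes (GGGCGG). The Plaur window is chr7:24462233-24462482, the 250 bases before the RefSeq start. The Anxa2 window is chr9:69453433-69453619 and stops where the GENCODE M21 gene begins.
Plaur: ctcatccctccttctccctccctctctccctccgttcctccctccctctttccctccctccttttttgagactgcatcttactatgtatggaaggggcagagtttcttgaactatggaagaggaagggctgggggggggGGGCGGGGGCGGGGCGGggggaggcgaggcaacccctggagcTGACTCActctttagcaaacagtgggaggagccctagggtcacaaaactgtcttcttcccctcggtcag
Anxa2: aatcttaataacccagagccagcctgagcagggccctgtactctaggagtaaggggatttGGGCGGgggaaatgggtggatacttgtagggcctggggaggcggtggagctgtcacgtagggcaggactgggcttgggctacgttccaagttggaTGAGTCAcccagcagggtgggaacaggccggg
Promoters were found for 4 of the 7 members, namely Plaur, Anxa2, Serpine2 and Lrp1. Windows of 300 bases were searched on both strands, from 250 before to 50 after the start. AP-1 occurred once in Plaur, from position -69, and once in Anxa2, from position -95. It occurred in neither Serpine2 nor Lrp1, and in 7.81% of all 32851 promoters of that length. GC boxes numbered 6 in Serpine2, 3 in Plaur, 3 in Anxa2 and 1 in Lrp1, and 35.7% of all promoters held at least 1. Those of Plaur adjoin or overlap each other. A TATA box (TATAAA) was found in Anxa2 only, from position -17, past the end of the printed stretch, against 13.6% of all promoters. None of the 4 held a kappaB site or a CArG box, which 4.51% and 1.63% of all promoters held. A CRE core (TGACG) was also absent from the 4 windows, and 20.8% of all promoters had it. The short E box (CANNTG, in 72.3% of promoters) occurred in Serpine2 only, and the ETS core (GGAA, in 96.0%) in all 4. These matches are descriptions of letters, not of bound sites.

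Expression of the urokinase receptor rose most in TAD, and its fold change was far above those of the activators. Plaur, Plat, Anxa2 and S100a10 were called higher, none of the 7 was called lower, and Plau, Lrp1 and Serpine2 did not pass. The call used edgeR's quasi-likelihood test at a Benjamini-Hochberg adjusted p below 0.05 over all tested genes. By that rule 27.0% of all tested genes were called, 15.2% higher and 11.8% lower in TAD. For the same 4 members every TAD library exceeded every control, which held for 16.9% of tested genes. Groups without overlap in either direction made up 31.9% of tested genes, and those lower in TAD 15.0%. The median log2 fold change was 1.08 over the 7 members and 0.04 over all tested genes. The members were picked with results of these data known, so these shares describe them only. Of all calls 56.2% were higher in TAD, but 38.6% with values rescaled to TPM. That scaling moved the median gene to -0.12, and the 4 members remained called.

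**Figure D1:**
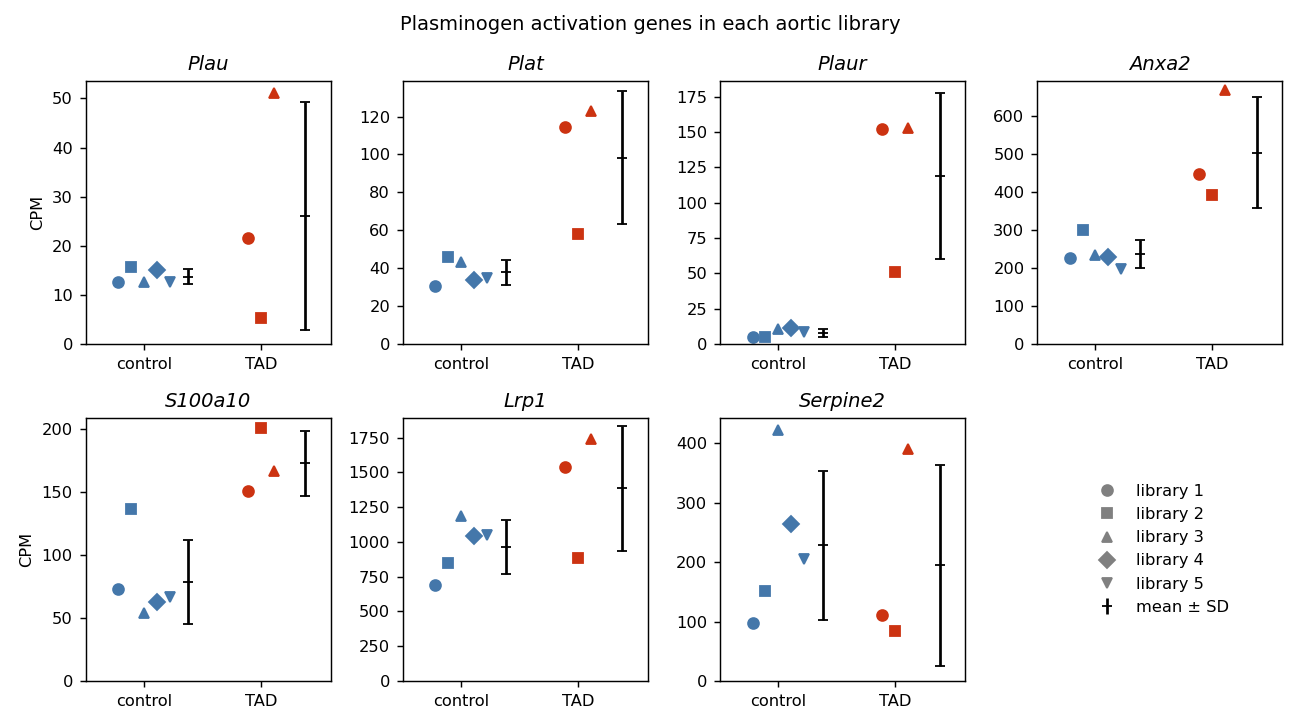
Level of each member in CPM (counts relative to the scaled library total, linear axes from 0) in the 5 control and 3 TAD libraries, with the mean and SD of each group in black. TAD libraries lie above all controls for Plat, Plaur, Anxa2 and S100a10, and TAD 2 (square) is the lowest TAD library for all members except S100a10.

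Plau encodes urokinase (ENSMUSG00000021822; GRCm38 chromosome 14, 20836660 to 20843385, plus strand, 11 merged exons). Controls were tight at 12.6, 15.7, 12.6, 15.2 and 12.6 CPM in libraries 1 to 5, where CPM is the count relative to the TMM-scaled library total. TAD libraries were at 21.7, 5.37 and 51.1 CPM. TAD 1 and TAD 3 therefore stood above every control and TAD 2 below every control. The TAD 2 value rests on 81 counts, with an exact 95% Poisson interval of 4.26 to 6.67 CPM for counting error, under the lowest control interval, which starts at 10.7 CPM. With group levels of 13.7 ± 1.58 CPM (SD, n = 5) and 26.1 ± 23.2 CPM (SD, n = 3), the log2 fold change was 0.92 ± 0.54 (SE), with a 95% interval of -0.31 to 2.15 (edgeR adjusted p = 0.24). The outcome turned on single TAD libraries. Leaving out TAD 2 gave 1.41, past the threshold (edgeR adjusted p = 0.011), and leaving out TAD 3 gave -0.03 (edgeR adjusted p = 0.97).

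Some fibroblast genes, but not all, ranged both below and above the controls in TAD, as Plau did. The 3 genes most like Plau over the 8 libraries were Lum, Smoc2 and Pdgfra, at a root mean square difference of 0.22, 0.28 and 0.30 in centred log2 CPM, against a median of 0.92 over 9841 genes. Lum encodes the proteoglycan lumican and Pdgfra a growth factor receptor of fibroblasts. The fibroblast and adventitia list, of which Lum and Pdgfra are members, had 8 of 8 markers in the table, none at 0 and none called. Its summed level was 4691 to 6567 CPM in controls, and 7275, 1590 and 9001 CPM in TAD 1, TAD 2 and TAD 3. TAD 2 was thus lowest and TAD 3 highest of the 8 libraries both for this sum and for Plau. Col1a1 (285 to 3601 CPM in TAD, 408 to 1708 CPM in controls) and Col1a2 (358 to 3017 and 473 to 2111 CPM) made up much of the sum. In TAD both ran below and above the control range, as did Pi16 (27.2 to 279 and 129 to 202 CPM). Dcn, Dpt and Gsn differed from Plau. Dcn was at 220 to 717 CPM in TAD and 484 to 792 CPM in controls, Dpt at 53.4 to 231 and 101 to 244 CPM, and Gsn at 584 to 1850 and 1421 to 2829 CPM. For these genes the highest library was a control. The part of fibroblast content in the Plau values was not tested. In bulk tissue, fewer cells of a type and less RNA per cell cannot be told apart.

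Plat, the tissue-type activator gene (ENSMUSG00000031538; GRCm38 chromosome 8, 22757727 to 22782844, plus strand, 13 merged exons), moved with less scatter. It was at 30.6, 46.2, 43.5, 34.04 and 35.1 CPM in the controls and at 114, 58.1 and 123 CPM in TAD. The lowest TAD library, TAD 2, was still above the highest control. Plat rose 2.60-fold, or 1.38 ± 0.25 (SE) on the log2 scale (edgeR adjusted p = 0.0050), and stayed called with any single library left out (1.19 to 1.65). Endothelial cells are a known source of this activator, and 4 of 8 endothelial markers were called lower, with sums of 1304 to 1794 CPM in controls and 952 to 1281 CPM in TAD and none at 0. The part of these cells in the Plat values was not tested. Its closest genes were Slc25a24, a mitochondrial carrier gene, the macrophage growth factor gene Csf1 and Tpm3-rs7, at 0.12, 0.15 and 0.16. Tpm3-rs7 is a copy of Tpm3 that matches it over 98.1% of its length, so its own counts are uncertain.

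Plaur encodes the surface-anchored urokinase receptor (ENSMUSG00000046223; GRCm38 chromosome 7, 24462484 to 24475968, plus strand, 6 merged exons). It was low in controls, at 5.43, 5.25, 10.7, 11.2 and 8.29 CPM, from 68 to 152 counts. TAD libraries had 152, 51.0 and 153 CPM. TAD 1 and TAD 3 were alike, and TAD 2, at a lower level, was still well above the highest control. Plaur rose 14.5-fold (log2 fold change 3.86 ± 0.41, edgeR adjusted p = 0.00060), and 1.12% of tested genes had a larger log2 fold change. It was called in all 19 alternative fits, at 2.97 to 4.22 and adjusted p of 7.79e-18 to 0.0099.

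Most macrophage and neutrophil markers, like Plaur, were higher in TAD than in controls, and their sums matched its order over single libraries only in part. Of 11 macrophage and monocyte markers 8 were called higher, with none at 0. Their summed level was 319 to 630 CPM in controls and 1474, 1167 and 1541 CPM in TAD 1 to 3. Among TAD libraries TAD 2 was lowest both for this sum and for Plaur, while TAD 1 and TAD 3 were alike in Plaur (152 and 153 CPM). Of 9 neutrophil markers 8 were tested and 6 called higher, with sums of 8.21 to 124 CPM in controls and 1275, 1064 and 428 CPM in TAD 1 to 3. The neutrophil sum was thus lowest, among TAD libraries, in TAD 3, where Plaur was as high as in TAD 1. In controls the macrophage sum was highest in control 2 (630 CPM), which had the least Plaur, and lowest in control 3 (319 CPM), where Plaur was at 10.7 CPM. The granule gene Camp was at 0 in at least 1 library of each group. All 5 red cell markers were called higher, from sums of 1601 to 7516 CPM to 31030 to 77260 CPM. The part of these cells in the Plaur values was not tested. TAD 2 had the most red cell and platelet transcripts of the 8 libraries and, among TAD libraries, the least Plaur. Genes most like Plaur were Itih4 (0.34), an inter-alpha-trypsin inhibitor chain gene, the versican-cleaving protease gene Adamts4 (0.49) and the myeloid membrane gene Ms4a6d (0.51), against a median of 1.93.

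**Figure D2:**
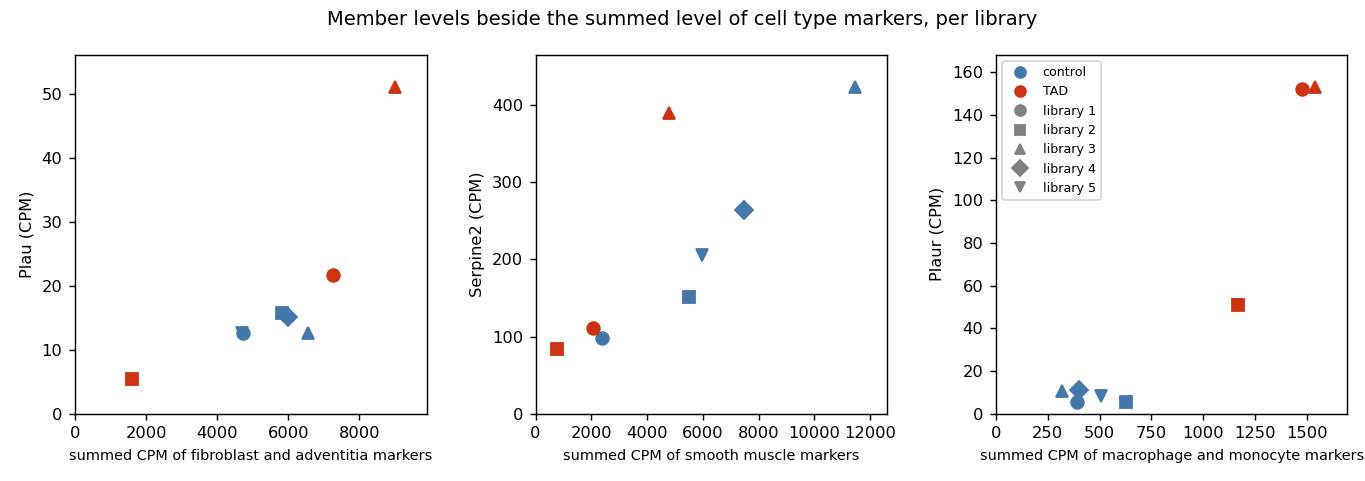
Level of Plau, Serpine2 and Plaur (CPM) against the summed CPM of fibroblast, smooth muscle, and macrophage and monocyte markers, 1 point per library, linear axes from 0. For Plau, TAD 2 (1590 CPM of fibroblast markers) is at the lower left and TAD 3 (9001 CPM) at the upper right, and for Plaur the TAD libraries are apart from controls on both axes.

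Anxa2 and S100a10 encode the 2 partners of the annexin A2 heterotetramer, which binds plasminogen and its tissue-type activator on endothelial cells and macrophages. Anxa2 (ENSMUSG00000032231; GRCm38 chromosome 9, 69453620 to 69491795, plus strand, 15 merged exons) was at 228, 300, 234, 228 and 199 CPM in controls. In TAD it was at 448, 394 and 669 CPM, all above every control. It rose 2.12-fold (log2 fold change 1.08 ± 0.21, edgeR adjusted p = 0.0063) and stayed called with each library left out (0.82 to 1.23). Its exons share 2.63% of their bases with Gm16144 on the opposite strand. Closest to it were Ostc, Spcs3 and Impdh2 (0.14 to 0.16), of which Ostc and Spcs3 act in the processing of secreted proteins and Impdh2 has a near-identical pseudogene.

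S100a10 (ENSMUSG00000041959; GRCm38 chromosome 3, 93555080 to 93564643, plus strand, 4 merged exons) was at 73.2, 137, 53.9, 62.9 and 66.6 CPM in controls. TAD libraries were at 151, 201 and 166 CPM. The groups did not overlap, but control 2 came near the lowest TAD library and far above the other controls. S100a10 was called higher with a 2.20-fold change (log2 fold change 1.14 ± 0.29, edgeR adjusted p = 0.022). The call was lost without control 4, control 5 or TAD 2, with little change in the log2 fold change (1.06, 1.08 and 1.01; edgeR adjusted p of 0.053, 0.053 and 0.058). It was the only member with its highest TAD level in TAD 2. The nearest genes were Etv5, Fam107b and Rpf2 (0.19 to 0.24), and gene models elsewhere match 42.8% of the Etv5 and 48.3% of the Rpf2 transcript.

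Lrp1 encodes a large endocytic receptor that clears activator and serpin complexes and also binds the urokinase receptor (ENSMUSG00000040249; GRCm38 chromosome 10, 127538161 to 127621148, minus strand, 88 merged exons). It had 690, 847, 1185, 1043 and 1051 CPM in controls and 1540, 880 and 1738 CPM in TAD. TAD 2 was inside the control range and the other TAD libraries were above it. The log2 fold change was 0.53 ± 0.26, with a 95% interval of -0.08 to 1.13 (edgeR adjusted p = 0.17). Without TAD 2 it was 0.77 and passed (edgeR adjusted p = 0.047). Its closest genes were Kirrel, Tmem39a and Pus7 (0.10 to 0.13), and another gene model matches 43.9% of the Pus7 transcript.

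Serpine2 encodes protease nexin 1, a serpin that inhibits thrombin, urokinase and tissue-type activator (ENSMUSG00000026249; GRCm38 chromosome 1, 79794197 to 79861180, minus strand, 10 merged exons). It was the most variable member among controls, at 98.0, 151, 423, 265 and 206 CPM. TAD libraries were at 111, 83.8 and 390 CPM and covered nearly the same range. The log2 fold change was -0.23 ± 0.60, with a 95% interval of -1.59 to 1.13 (edgeR adjusted p = 0.81), which leaves room for a change in either direction. It was -1.23 without TAD 3 (adjusted p = 0.13) and above 0 without TAD 1, TAD 2 or control 3 (0.05, 0.13 and 0.12).

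Smooth muscle markers were in the same order as Serpine2 over the controls. Their summed level was 2368, 5490, 11460, 7478 and 5954 CPM in controls 1 to 5, lowest in control 1 and highest in control 3 as for Serpine2. In TAD 1 and TAD 2 the sum was 2076 and 782 CPM. TAD 3 had 4774 CPM of these markers, so the TAD libraries were also in the same order as for Serpine2. Across the groups the orders differed. TAD 1 had less of these markers than control 1 and more Serpine2, and TAD 3 had less of them than controls 2, 4 and 5 but more Serpine2 than each. All 8 smooth muscle markers were in the table, none was at 0 and none was called. Their part in the Serpine2 values was not tested. The genes most like Serpine2 were Adcy7, the elastic fibre gene Fbln5 and Cercam (0.15, 0.16 and 0.17), none of them called.

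**Figure D3:**
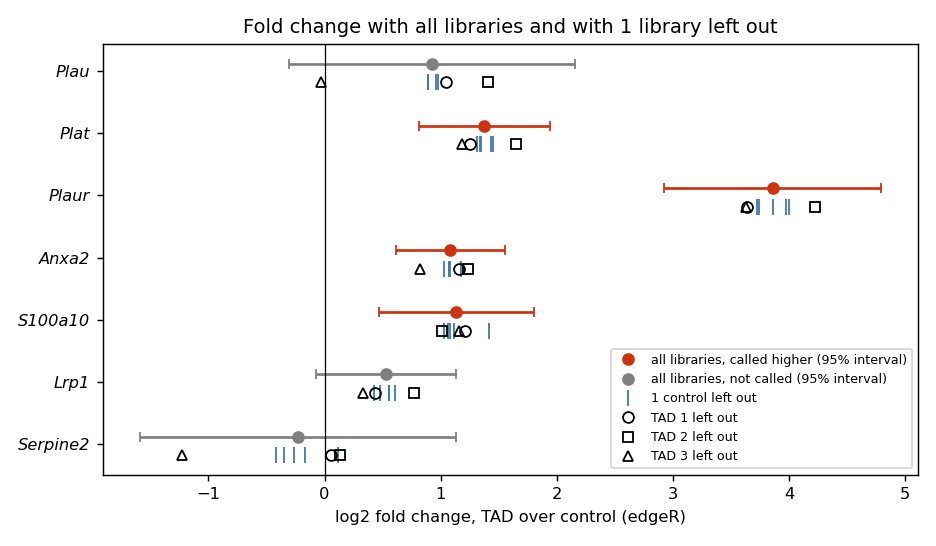
Log2 fold change of TAD over control by edgeR for each member with all 8 libraries (filled points, bars are 95% intervals) and with 1 library left out (ticks for controls, open symbols for TAD). Leaving out TAD 2 or TAD 3 moves Plau from 0.92 to 1.41 or -0.03, and Plaur stays between 3.63 and 4.22.

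Of the 7 members 6 were lowest in TAD 2 among the TAD libraries, as were 36.6% of all tested genes, and 6 were highest in TAD 3 (33.2% of tested genes). In controls 4 members were highest in control 2, for which the share over all tested genes was not computed. TAD 2 also held 1223 CPM of 2 neuronal markers in the table, Tubb3 and Prph, and 937 CPM of 4 Schwann cell markers, against at most 85.4 and 221 CPM in the other libraries. Cardiomyocyte markers reached 17040 CPM in control 1 and 11210 CPM in TAD 1, against at most 2913 CPM in the other libraries. Without those 2 heart-rich libraries Plaur (3.52), Plat (1.19) and Anxa2 (1.15) were still called (edgeR adjusted p of 0.0099, 0.046 and 0.036) and S100a10 (1.20) was not (adjusted p = 0.083). Without control 1, control 2 and TAD 2 together, the same 4 members and Plau (1.42, edgeR adjusted p = 0.040) were called, while several other genes named further on lost their calls. Library totals ran from 12042971 to 15039132 counts, and the lowest count of a member was 68.

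Levels between genes were compared as FPKM (fragments scaled by gene length and library total). In controls the mean was 43.7 FPKM for S100a10, 35.1 for Lrp1, 34.4 for Anxa2, 21.3 for Serpine2, 5.18 for Plat, 3.58 for Plau and 1.18 for Plaur. S100a10, Lrp1 and Anxa2 had no order that held in all controls. Serpine2 ranked 4 in 4 controls and 2 in control 3. Plat, Plau and Plaur ranked 5, 6 and 7 in every control. In TAD the means were 97.9 FPKM for S100a10, 74.6 for Anxa2, 51.7 for Lrp1, 18.6 for Serpine2, 17.6 for Plaur, 13.8 for Plat and 6.95 for Plau. Plau was the lowest member in every TAD library. Serpine2, Plaur and Plat took ranks 4 to 6 in an order that differed in each TAD library.

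Ratios of FPKM within a library gave the balance of members free of library scaling. Whether a ratio lies above or below 1 still depends on the gene lengths used for FPKM. Plaur to Plau was 0.239, 0.185, 0.474, 0.408 and 0.366 in controls 1 to 5 and 3.90, 5.28 and 1.67 in TAD 1 to 3. On the FPKM scale, receptor transcripts were thus below those of the activator in every control and above them in every TAD library. Serpine2 to Plat was 2.18, 2.22, 6.61, 5.28 and 3.98 in controls and 0.660, 0.981 and 2.16 in TAD. The groups did not overlap, though TAD 3 and control 1 differed by only 0.02. Plau to Plat was 0.551 to 0.848 in controls and 0.360, 0.176 and 0.791 in TAD, with TAD 3 inside the control range. S100a10 to Anxa2 was 0.882 to 1.75 in controls and 0.952 to 1.96 in TAD, so this ratio overlapped between groups while both levels were higher. These ratios were not tested, since their members were chosen with results known.

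**Figure D4:**
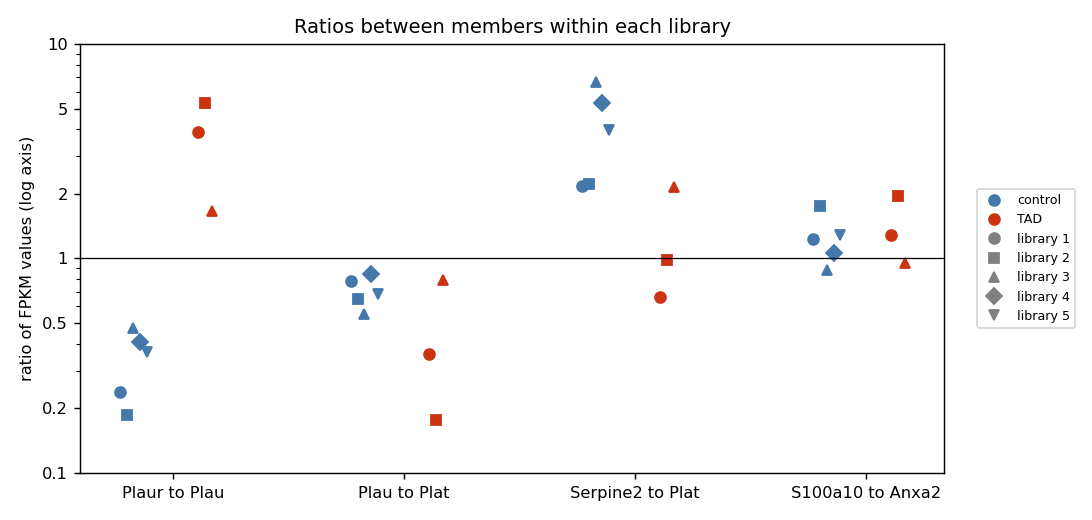
Ratio of FPKM values of member pairs within each library (log axis; line at 1), controls in blue and TAD in red, symbols by library number. Plaur to Plau is 0.185 to 0.474 in controls and 1.67 to 5.28 in TAD, and the S100a10 to Anxa2 ratios overlap.

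Beyond the members, 86 genes of the wider system and related families were listed, of which 72 were tested and the other 14 were not analysed here. Of the 72, 20 were called higher and 8 lower, with a median log2 fold change of 0.55. Over all tested genes 15.2% were called higher and 11.8% lower, and the 8 lower calls are near that share. The counts per list are given beside these shares as descriptions, since lists of 5 to 17 genes hold few calls at either share. The zymogen gene Plg is among those not analysed here. The genes Plgrkt, Eno1, Itgb2, Itga5, Igf2r, Lrp5, Lrp6, S100a6, S100a11 and Mmp14 were chosen after their values were seen.

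Among 8 other inhibitors Serpinb2 was called higher and Spint2 lower, and 6 were not called, near the shares of all tested genes. Serpinb2, which encodes plasminogen activator inhibitor 2, had 0.718, 2.92, 0.298, 0.807 and 0.154 CPM in controls and 43.1, 7.29 and 9.40 CPM in TAD. Its level was low in every control and highest in TAD 1. The log2 fold change was 4.33 ± 0.92 (edgeR adjusted p = 0.0098), 3.07 without TAD 1 (adjusted p = 0.0496) and 5.30 without control 2 (0.0051), and 2.99 and no longer called without control 1 and TAD 1 together (0.093). Exons of Serpinb2 share 12.4% of their bases with Serpinb10. Spint2, a Kunitz-type inhibitor gene, was at -0.88 ± 0.27 (edgeR adjusted p = 0.042), lost without any of 6 libraries (controls 1 to 4, TAD 1 or TAD 2; -0.89 to -0.64, adjusted p of 0.069 to 0.13). Of 5 ligand and clotting genes, F13a1 (1.63 ± 0.22, edgeR adjusted p = 0.0016), the subunit gene of the factor that crosslinks fibrin, was called higher and 4 were not called.

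Among 17 other plasminogen and urokinase receptors, 5 were called higher (15.2% of all tested genes) and 2 lower (11.8%). Fpr2 (6.15 ± 1.02), Fpr1 (4.72 ± 0.86) and Itgam (4.44 ± 0.47) rose most (edgeR adjusted p of 0.0034, 0.0053 and 0.00060). The formyl peptide receptors Fpr1 and Fpr2 are myeloid receptors, known in human cells to respond to a fragment of the urokinase receptor, and Itgam with Itgb2 (2.78 ± 0.35, adjusted p = 0.0012) forms the leukocyte integrin Mac-1. Itgam is also a macrophage marker here. In controls Fpr2 was at 0 to 0.845 CPM and Fpr1 at 0 to 0.998 CPM, so the size of their fold changes is uncertain. With limma on log2(FPKM + 1) the log2 fold changes were 2.92 and 2.58, both called. Without control 5, Fpr2 had 7.64 and Fpr1 5.66, both called. Fpr2 matches the gene model Gm5966 over 91.9% of its transcript, and 68.7% of the Itgam exon bases lie in a read-through model, so their counts are uncertain. The transmembrane plasminogen receptor gene Plgrkt fell by 0.96 ± 0.17 on the log2 scale (edgeR adjusted p = 0.0048). Its call was lost with the replicate block (-1.05, edgeR adjusted p = 0.057). Eno1, the enolase gene whose product also binds plasminogen, was at -0.64 ± 0.27 and not called (edgeR adjusted p = 0.11), but passed without TAD 3 (-0.93, adjusted p = 0.035) and by DESeq2 (-0.66, 0.041). It has 3 near-identical gene models. The remaining calls of the list were Itga5, the alpha 5 integrin gene (2.22 ± 0.55, edgeR adjusted p = 0.019), higher, and Igf2r, the mannose 6-phosphate receptor gene (-0.67 ± 0.17, adjusted p = 0.021), lower. The Itga5 groups overlapped, and its call was lost without TAD 3 (1.40, edgeR adjusted p = 0.066) and with TPM (1.87, limma adjusted p = 0.054). That of Igf2r was lost without TAD 1 (-0.64, edgeR adjusted p = 0.079).

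In the lipoprotein receptor family, to which Lrp1 belongs, 2 of 11 genes tested were called higher and 3 lower, beside shares of 15.2% and 11.8% over all tested genes. Genes with large changes were found in both directions. Vldlr, whose product also takes up activator and serpin complexes, had 155 to 286 CPM in controls and 58.3, 40.2 and 43.7 CPM in TAD, which was -2.21 ± 0.26 on the log2 scale (edgeR adjusted p = 0.00086). Lrp8, a related receptor gene, had 2.23 to 5.67 CPM in controls and 63.2, 29.4 and 36.1 CPM in TAD, which was 3.57 ± 0.34 on the log2 scale (edgeR adjusted p = 0.00043). Both kept their call in every alternative fit that tested them. The Wnt co-receptor genes Lrp5 (-1.10 ± 0.20, adjusted p = 0.0057) and Lrp6 (-0.73 ± 0.22, adjusted p = 0.037) were called lower, and Lrp6 lost its call with TPM and without control 3, 4 or 5, TAD 1 or TAD 2 (-0.73 to -0.57, adjusted p of 0.073 to 0.13).

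Of 8 annexin genes other than Anxa2, Anxa8 (1.08 ± 0.30, edgeR adjusted p = 0.030) was called higher and the other 7 did not pass, which is near the share of 15.2% over all tested genes. The Anxa8 call was lost without control 3, 4 or 5, TAD 1 or TAD 3 (0.81 to 1.09, adjusted p of 0.062 to 0.098) and with TPM. Among 8 other S100 genes, 4 were called higher and 1 lower, beside 15.2% and 11.8% of all tested genes. The neutrophil calprotectin genes S100a8 (4.93 ± 0.97) and S100a9 (4.73 ± 0.99), also in the neutrophil list, had 6.30 and 6.25 without control 5 (edgeR adjusted p of 0.0073 and 0.0094 with all libraries). S100a6 (1.19 ± 0.22, adjusted p = 0.0056, not called with TPM) and S100a11 (1.16 ± 0.25, adjusted p = 0.011) had log2 fold changes close to that of S100a10, and S100a11 has near-identical gene models. S100b, a Schwann cell and adipocyte gene, fell by 1.75 ± 0.45 on the log2 scale (edgeR adjusted p = 0.021), and was not called with the replicate block (-1.93, edgeR adjusted p = 0.11). Some adipocyte markers were also lower. Of 5 brown adipocyte markers 2 were called lower, with sums of 2543 to 4205 CPM in controls and 780 to 1686 CPM in TAD. Of 6 white adipocyte markers 3 were called lower, with sums of 5739 to 7311 CPM and 3865 to 6944 CPM. White marker Fabp4 (3201 to 4353 CPM in controls, 3028 to 5644 CPM in TAD) and brown marker Elovl3 (8.21 to 54.9 and 24.65 to 86.2 CPM) reached above the highest control in TAD. No marker of either list was at 0, and their part in the S100b values was not tested. Schwann cell markers had sums of 47.1 to 221 CPM in controls and 42.6 to 937 CPM in TAD, with none called.

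Of 8 growth factor genes whose products plasmin or its activators can process, Hgf (2.14 ± 0.40, edgeR adjusted p = 0.0060) and Tgfb1 (1.24 ± 0.13, adjusted p = 0.00054) were called higher and Vegfa (-0.75 ± 0.20, adjusted p = 0.025) lower, beside 15.2% and 11.8% of all tested genes. Tgfb1 was at 38.2 to 48.1 CPM in controls and at 106, 87.8 and 111 CPM in TAD. The groups were far apart, with little scatter in either. Hgf was low in controls (1.46 to 3.66 CPM) and was not called with the replicate block (1.81, edgeR adjusted p = 0.054). Vegfa was not called without control 4, control 5 or TAD 2 (-0.75 to -0.60, adjusted p of 0.054 to 0.066). Of 7 metalloproteinase genes with proforms that plasmin can cut, 4 were called higher, beside 15.2% of all tested genes. These were Mmp8 (4.91 ± 1.16, edgeR adjusted p = 0.016), Mmp9 (3.09 ± 0.58, adjusted p = 0.0059), Mmp3 (2.21 ± 0.52, adjusted p = 0.015) and Mmp14 (1.20 ± 0.26, adjusted p = 0.011). Mmp8 is also in the neutrophil list. Without control 5 Mmp8 had 6.66 and Mmp9 3.79, and without TAD 1 Mmp8 (4.31) and Mmp3 (2.05) were no longer called (adjusted p of 0.057 and 0.054). Mmp3 and Mmp14 were not called with TPM (1.72 and 0.96, limma adjusted p of 0.079 and 0.065). Without the heart-rich control 1 and TAD 1 together, the named genes Spint2, Itga5, Igf2r, Lrp6, Anxa8, S100a8, S100a9, S100a11, Vegfa, Mmp3, Mmp8 and Mmp14 were not called either, each in the same direction as before. Without control 1, control 2 and TAD 2 together, calls were lost for S100a9 (4.04, edgeR adjusted p = 0.063), S100b (-1.89, 0.060), Mmp8 (4.35, 0.093) and Mmp9 (2.68, 0.051). The same setting ended those of Vegfa (-0.62, edgeR adjusted p = 0.13), Spint2 (-0.67, 0.15), Lrp6 (-0.75, 0.052) and Igf2r (-0.51, 0.11).

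**Figure D5:**
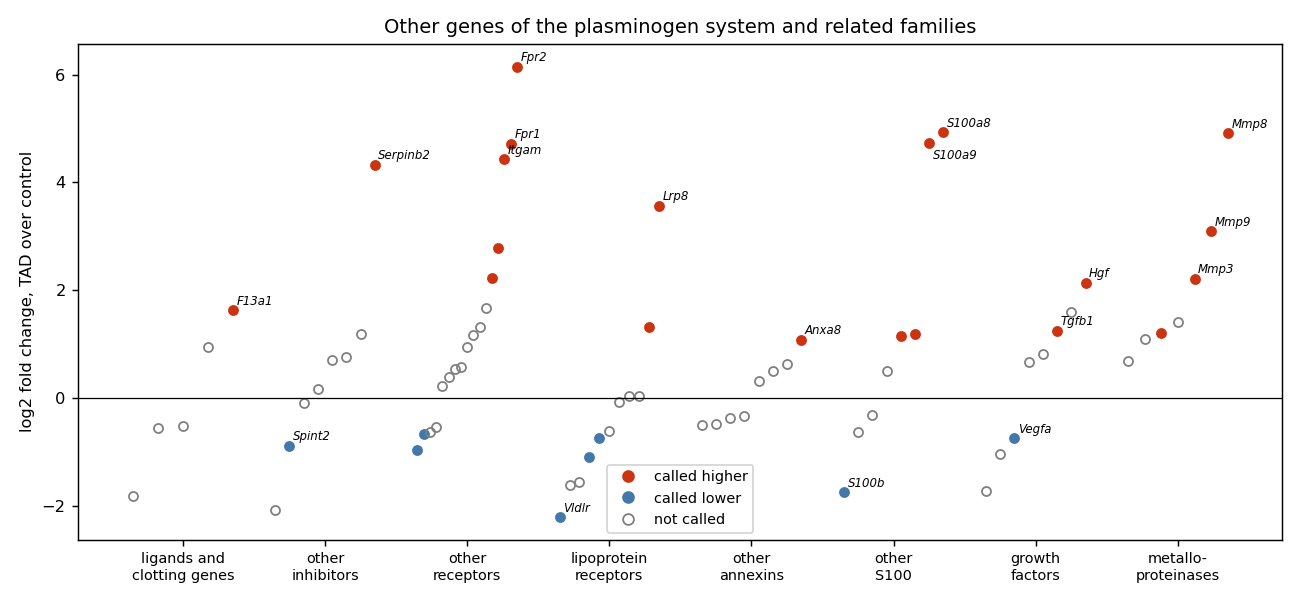
Log2 fold change of TAD over control (edgeR) for the 72 tested genes of the 8 lists, 1 point per gene, filled where called at an adjusted p below 0.05. Labels give the genes chosen by the naming rule that are reported here. Fpr2, at no more than 0.845 CPM in controls, is highest at 6.15.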

How the data were processed

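Aortic mRNA was measured in 5 control and 3 TAD libraries, grouped and numbered by their titles. RNA was extracted with TRIpure and libraries were built with a NEBNext Ultra kit, per the labels' protocols. The sources used here do not state strandedness. Per the submitters' processing notes, the tools were HTSeq, HISAT2, fastp 0.23.1 and bcl2fastq 2.19. The notes list the human builds GRCh38 and hg38, although the gene identifiers are those of mouse. The sources used here name no mouse build. Positions are those of GENCODE M21 on GRCm38, which holds 13821 of the 13839 identifiers.

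The deposited table gives raw counts of reads per gene and library, per the file headers. It also gives the authors' FPKM values, scaled by gene length and library total, per the file headers. Length scaling does not remove differences in library composition. edgeR 4.0.16 in R 4.3.3 tested the 13701 genes that filterByExpr kept, on TMM-scaled library sizes (quasi-likelihood, no covariate, Benjamini-Hochberg over all genes, threshold 0.05). The script was tested on simulated counts, with 50 genes changed at each size. It recovered 0% of 1.5-fold, 8.16% of 2-fold, 76% of 4-fold and 96% of 8-fold changes. In the simulation 13194 genes were left unchanged, while 27.0% of tested genes were called in the data. The adjusted p was therefore stricter in the simulation, and these rates may understate recovery here. A gene that was not called may still have changed by 1.5-fold or 2-fold. The biological coefficient of variation was 41.6%. Each SE comes from the estimate and its F statistic (size of the log2 fold change over √F). Alternatives used DESeq2 1.42.0, limma 3.58.1 on log2(FPKM + 1), with 0.1 as another pseudocount and a mean of 0.5 FPKM as the filter, TPM, other scalings, a replicate block and left-out libraries. Near-identical copies were sought with BLAST 2.17.0 in GENCODE transcripts (at least 95% identity over 100 bases).

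Members, lists and alternatives were chosen with earlier results of these data known. Named genes are the members, up to 3 called genes per list with the largest change (the most expressed gene where none was called), and the 3 genes with at least 10 CPM nearest to each member in log2 CPM (prior count 2). Intervals on counts cover counting error only, since the labels mention no molecular identifiers. A gene that this rule named is not reported here.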

Additional observations from a re-analysis of the deposited data

Results flagged for a closer look

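A control library is singled out when its gap to the nearest other control exceeds 0.71 of the range of the 5 controls. For normally distributed values chance gives this in about 1 of 20 genes. That rate need not hold here, since CPM values were used and several genes had few counts in controls. Of 36 genes checked, 7 met this. S100a10 was at 137 CPM in control 2, next to 73.2 CPM in the nearest control. Serpinb2 was at 2.92 CPM in control 2, next to 0.807 CPM. The other 5 were all highest in control 5, namely Fpr2 (0.845 CPM), S100a8 (20.04 CPM), S100a9 (30.6 CPM), Mmp8 (3.53 CPM) and Mmp9 (32.1 CPM), next to 0.239, 3.83, 5.27, 0.479 and 8.80 CPM. S100a8, S100a9 and Mmp8 are members of the neutrophil list, whose sum was 124 CPM in control 5 and 8.21 to 17.2 CPM in the other controls.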

How the results depend on the processing

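Each result was recomputed under 19 alternatives. Plaur kept its direction and call in all of them, and so did Plat and Anxa2 except with the replicate block. With 1 library left out, the log2 fold change ranged from -0.03 to 1.41 for Plau, -1.23 to 0.13 for Serpine2, 0.33 to 0.77 for Lrp1 and 1.01 to 1.42 for S100a10. The direction of Plau reversed without TAD 3 (-0.027), and that of Serpine2 without control 3 (0.12), TAD 1 (0.05) or TAD 2 (0.13). The causes were not tested. Plau also passed without control 1, control 2 and TAD 2 (1.42). Leaving out control 1 and TAD 1 gave 1963 calls over all genes in place of 3705, 15 in place of 28 in the wider lists, and 1.20 without a call for S100a10. The replicate numbers do not pair the samples by the labels. Deviations of same-numbered libraries correlated at 0.427, 0.097 and 0.544. For TAD 1 and TAD 3 the control of the same number was the best match, ahead of control 2 (0.220) and control 5 (0.457). TAD 2 correlated best with control 1 (0.362). The replicate block gave 1255 calls, 18 in the wider lists, and 1.25 for Plat, 0.96 for Anxa2 and 1.07 for S100a10, not called (edgeR adjusted p of 0.082, 0.092 and 0.060). Among genes named from the lists it ended the calls of Serpinb2, Spint2, Plgrkt, Igf2r, Lrp6, Anxa8, S100a6, S100b, Hgf, Vegfa, Mmp3 and Mmp14. It spends most of the residual degrees of freedom. DESeq2 made 4747 calls and TPM 2695. Over the other named genes and all alternatives, a call was lost 69 times and gained 2 times, with no change of direction. In controls Plaur and Plau had 68 to 210 counts per library, so their relative counting error is larger there than for the other members.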
